A study of Mus musculus with 4 samples.

Results

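Fth1, Ftl1, Slc40a1 and Tfrc encode the storage, export and uptake proteins at the centre of cellular iron balance, and their transcripts were followed in mouse SVEC endothelial cells given lipopolysaccharide (LPS). SVEC is an established line of endothelial cells, the cells that line vessels, and LPS is the main lipid of the outer membrane of Gram-negative bacteria. The genes were picked by name from the probe annotation, and they were selected on earlier results of these same arrays, so their log2 ratios are given as a description with no test. All 4 were measured, on 8 of the 32448 spots of each array, among 11138 genes that carry 1 symbol in the annotation.

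Control cells were compared with cells exposed to LPS in culture for 4 h or for 24 h. The labels of 3 arrays give a dose, 50 ng/ml. At each time amplified RNA of treated and control cells was hybridised together on 2 arrays, with LPS labelled with Cy5 on the first and with Cy3 on the second. The labels call the second array a dye reversal and name no separate cultures, so a time point was taken as 1 RNA pair, and the SD between its arrays covers labelling and hybridisation only. The values are log2 ratios with no intensities, the reversed arrays were turned in sign, and the direction, LPS over control, rests on the dyes named in the labels. The opposite convention would turn every sign. Over the 11138 genes, the 2 arrays of a time, once turned, had a correlation of 0.48 at 4 h and 0.10 at 24 h. At 24 h the arrays thus agreed little across genes.

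Ferritin is a hollow shell built of heavy and light chains that holds iron in a safe form. The heavy chain, from Fth1, oxidises ferrous iron as it enters, and the light chain, from Ftl1, favours the deposition of the mineral core. Ferroportin, from Slc40a1, is the iron exporter of the cell membrane and the target of the hormone hepcidin, while the transferrin receptor, from Tfrc, takes up transferrin-bound iron. Iron regulatory proteins bind the messenger RNAs of these 4 genes when iron is scarce, restraining translation of the first 3 and protecting the Tfrc message from decay, and inflammation is known to retain iron in macrophages through less ferroportin and more ferritin.

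In short, the ferritin heavy chain gene was higher with LPS at both times, while the light chain gene was lower at 4 h and near 0 at 24 h. The ferroportin gene was higher at 4 h and on the control side at 24 h. The transferrin receptor gene lay close to the array median throughout. These directions are relative to the median of each array. Against abundant transcripts, a list chosen with earlier results known, Fth1 was short of the 2-fold rule at 4 h. On that scale, given further on, Slc40a1 was on the control side at both times, and 85.5% of all genes were lower at 4 h. A gene was counted as higher or lower where the mean ratio of a time reached 2-fold and its 2 arrays reached 1.5-fold each in that direction. By that rule 2 of the 4 genes were higher and 1 was lower at 4 h, where 8.74% of all genes were higher and 5.77% lower. At 24 h 1 of the 4 was higher and 0 were lower, where 1.68% of all genes were higher and 0.799% lower. Since the genes were chosen with these contrasts known, nothing is read from those counts.

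**Figure D1:**
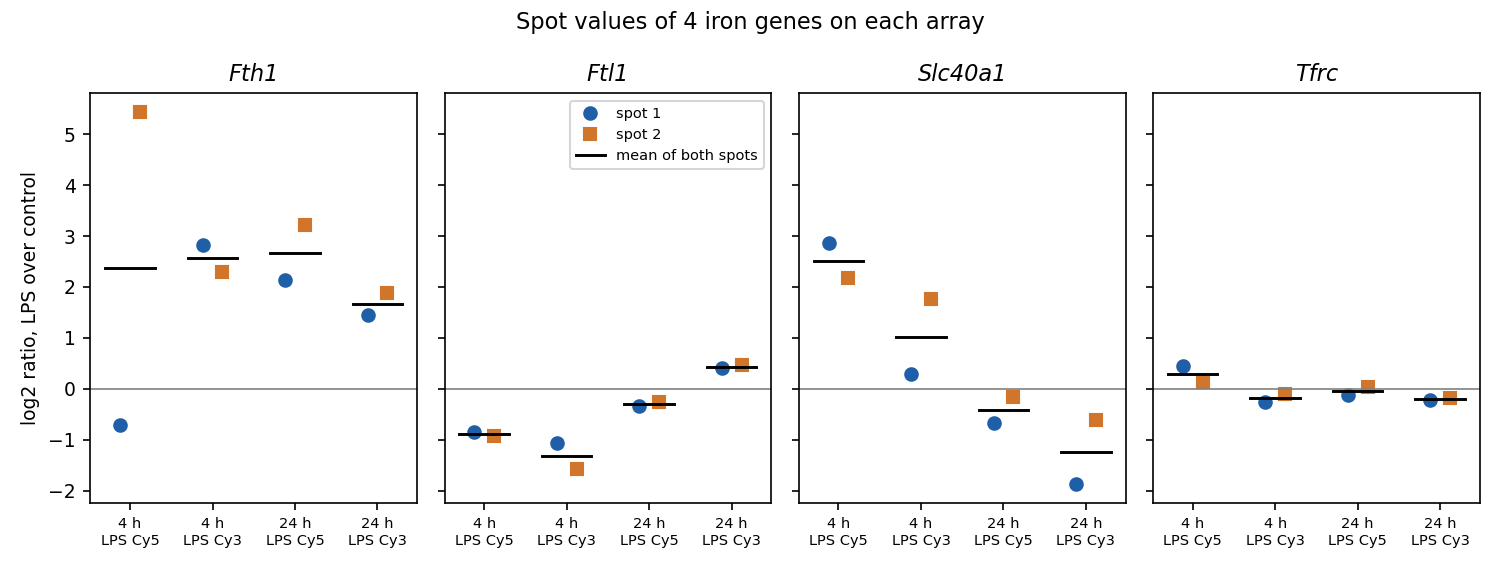
Log2 ratio of LPS over control (vertical axis) for each of the 2 adjacent spots of Fth1, Ftl1, Slc40a1 and Tfrc on the 4 arrays (horizontal axis, time and dye of LPS), with the mean of both spots as a bar. The Fth1 spots lie at -0.70 and 5.43 on the first 4 h array, and the Slc40a1 bars are above 0 at 4 h and below 0 at 24 h.

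Fth1 had a log2 ratio of 2.36 on the 4 h array with LPS in Cy5 and of 2.56 on the reversed 4 h array, a mean of 2.46 ± 0.14 (SD, 2 arrays) or 5.51-fold. At 24 h the arrays gave 2.67 and 1.66, a mean of 2.17 ± 0.71 or 4.49-fold. All 4 arrays were on the LPS side, and the arrays of the 2 times overlapped. The gene lay above 97.7% of all genes at 4 h and above 99.6% at 24 h, where 39 genes had a higher mean. The 24 h mean minus the 4 h mean was -0.30 on the log2 scale, smaller in size than the SD between the 24 h arrays.

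The close agreement of the 4 h arrays in Fth1 came from averaging spots that differed. Each of the 4 genes is represented by 1 oligonucleotide printed on 2 adjacent spots, and on the first 4 h array the Fth1 spots read -0.70 and 5.43. Their distance of 6.14 exceeded that of 99.4% of 12172 adjacent pairs on the array, whose median distance was 0.20. On the reversed 4 h array the same spots read 2.83 and 2.29. Taken by the first spot alone, Fth1 had a 4 h mean of 1.06 and did not meet the rule, and by the second spot alone a mean of 3.86. At 24 h the spots read 2.13 and 3.22 on the first array and 1.45 and 1.88 on the reversed array, so each spot met the rule by itself.

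Ftl1 read -0.89 and -1.31 on the 4 h arrays, a mean of -1.10 ± 0.30 (SD, 2 arrays), or 2.14-fold lower with LPS. At 24 h its arrays read -0.30 and 0.43, a mean of 0.07 ± 0.52. Both 4 h arrays were on the control side and below both 24 h arrays, and the 24 h arrays lay on either side of 0. Adjacent spots of Ftl1 were at most 0.50 apart on any array. The 4 h mean lies near the 2-fold limit. It was -0.96 by the first spot alone, -0.98 with the arrays scaled to one spread and -0.96 after quantile normalization, and under each of these the gene did not meet the rule. Processed copies of ferritin genes occur in the mouse genome, and the oligonucleotides cannot be assumed to exclude signal from such copies.

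Averaged over their spots, the 2 ferritin chain genes stood apart on every array, as a description of these libraries. The log2 ratio of Fth1 exceeded that of Ftl1 by 3.25 and 3.87 at 4 h, array by array, then by 2.97 and 1.23 at 24 h. The mean gap was 3.56 at 4 h and 2.10 at 24 h. This gap within an array does not move with centring, which subtracts the same amount from both genes. On the first 4 h array the gap rests on the second spot of each gene, at 6.36, since the first spots were 0.14 apart. On the other 3 arrays the gap by single spots lay between 1.05 and 3.89.

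The DNA ahead of the ferritin genes is shown because these partners of the same shell gave unlike ratios. Of the 4 genes, Fth1, Ftl1 and Tfrc had entries among the RefSeq promoter sequences (build GRCm38.p6), and Slc40a1 is named only. For Fth1, with 2 annotated starts, the window before the downstream start is printed. It covers chr19:9982396-9982645 on the plus strand, and the Ftl1 window covers chr7:45459887-45460136 on the minus strand. Both run 5′ to 3′ and end at the base before the annotated start. Capitals mark matches on either strand to CCAAT, to the GC box GGGCGG and, in Ftl1 only, to the NF-kB consensus.

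Fth1: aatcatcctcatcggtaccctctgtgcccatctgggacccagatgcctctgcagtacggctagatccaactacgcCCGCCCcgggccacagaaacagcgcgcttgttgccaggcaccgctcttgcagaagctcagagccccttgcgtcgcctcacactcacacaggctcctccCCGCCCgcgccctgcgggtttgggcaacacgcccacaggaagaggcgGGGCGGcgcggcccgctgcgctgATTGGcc
Ftl1: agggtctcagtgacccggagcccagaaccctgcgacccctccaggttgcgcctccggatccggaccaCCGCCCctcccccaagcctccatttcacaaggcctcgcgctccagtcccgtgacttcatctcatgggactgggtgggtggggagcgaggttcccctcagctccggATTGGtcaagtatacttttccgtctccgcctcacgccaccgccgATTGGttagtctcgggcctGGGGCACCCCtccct

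The Fth1 window held 3 GC boxes and 1 CCAAT match, and the Ftl1 window 1 GC box and 2 CCAAT matches. Over 32851 RefSeq windows of 300 bases, 35.7% held a GC box and 37.4% a CCAAT match. The NF-kB consensus, present in 8.46% of windows, matched Ftl1 from base -15 to base -6 on both strands. TATAA lay 27 bases after the annotated start of Fth1 and 18 bases after that of Ftl1, and 24.9% of windows held it. The antioxidant response core TGACNNNGC (12.4% of windows) and the hypoxia response core ACGTG (19.6%) had no match in either ferritin window, which says only that these letters are not there. In Tfrc, ACGTG lay across the upstream of 2 annotated starts, from base -2 to base 3. A match is a description of the letters and was not tied to any measured change.

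Slc40a1 read 2.51 and 1.02 on the 4 h arrays, a mean of 1.77 ± 1.05 (SD, 2 arrays), or 3.41-fold higher with LPS. At 24 h its arrays read -0.41 and -1.24, a mean of -0.83 ± 0.59, or 1.78-fold lower, which did not meet the 2-fold rule. Both 4 h arrays were on the LPS side and both 24 h arrays on the control side, so the times did not overlap. The 24 h mean minus the 4 h mean was -2.60 on the log2 scale, a 6.05-fold change in the ratio, with 1 RNA pair at each time and no test. A difference of that kind, at least 2-fold with no overlap, was found downward in 9.99% of all genes and upward in 8.23%. Slc40a1 stood above 95.3% of all genes at 4 h and above 4.09% at 24 h.

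The spots of Slc40a1 kept the order of the times but differed in size. They read 2.86 and 2.17 on the first 4 h array and 0.29 and 1.76 on the reversed one. At 24 h they read -0.68 and -0.15, and on the reversed array -1.87 and -0.61. All 4 readings at 4 h were above 0 and all 4 at 24 h below 0. By the first spot alone the gene did not meet the rule at 4 h, at a mean of 1.57, and met it as lower at 24 h, at -1.27. By the second spot alone the means were 1.96 and -0.38.

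Tfrc read 0.30 and -0.17 on the 4 h arrays, a mean of 0.06 ± 0.33 (SD, 2 arrays). At 24 h it read -0.05 and -0.20, a mean of -0.12 ± 0.11. The 4 h arrays lay on either side of 0, the 24 h arrays just below it, and the times overlapped. Adjacent spots were 0.05 to 0.32 apart. With no intensities, a ratio near 1 from steady expression and one from a faint spot cannot be told apart.

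In order of mean ratio at 4 h, Fth1 was followed by Slc40a1, Tfrc and Ftl1, and the arrays of Fth1 and Slc40a1 overlapped while the other neighbours did not. At 24 h the order was Fth1, Ftl1, Tfrc and Slc40a1, and the arrays of Ftl1 and Tfrc overlapped. Slc40a1 exceeded Tfrc by 1.71 on the log2 scale at 4 h, and the difference was -0.70 at 24 h, with both arrays of each time on the same side.

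**Figure D2:**
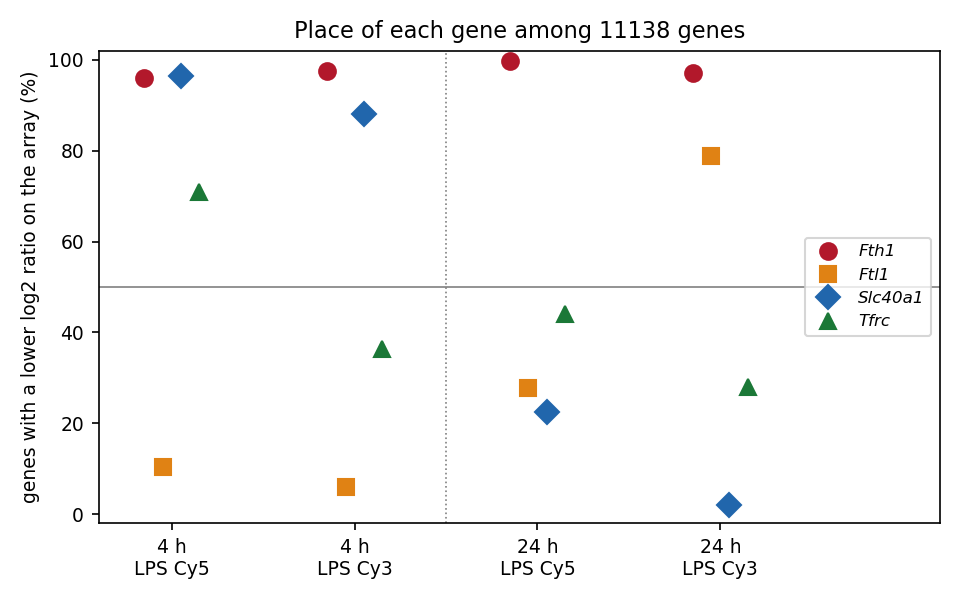
Percentage of 11138 genes with a lower log2 ratio (vertical axis) than Fth1, Ftl1, Slc40a1 and Tfrc on each of the 4 arrays (horizontal axis, time and dye of LPS). Fth1 stays above 95.9% of genes or more, and Slc40a1 goes from above 88.0% or more at 4 h to above 22.4% or less at 24 h.

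The size of every 4 h value depends on what counts as unchanged. Abundant transcripts outside the translation machinery were 35 measured genes, such as those of cytoskeleton and glycolysis. The median log2 ratio over their spots was 2.86 and 1.58 at 4 h, array by array, against 0.19 and 0.08 at 24 h. Centring each array on that median moved the median of all genes at 4 h to -2.22. On that scale the 4 h mean of Fth1 was 0.24, with arrays at -0.50 and 0.98, and that of Slc40a1 was -0.45. Ftl1 was then at -3.32 and Tfrc at -2.16. At 24 h the median of all genes moved to -0.11, Fth1 stayed at 2.03 and Slc40a1 at -0.97. Against the abundant transcripts, Fth1 met the rule as higher at 24 h only, and Slc40a1 was below 0 on all 4 arrays. On that scale 85.5% of all genes were lower and 0.655% higher at 4 h. The list was chosen with earlier results of these data known. Its choice sets the 4 h shift, so these values cannot decide which scale is right. The part of transcript abundance in the 4 h ratios was not tested.

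**Figure D3:**
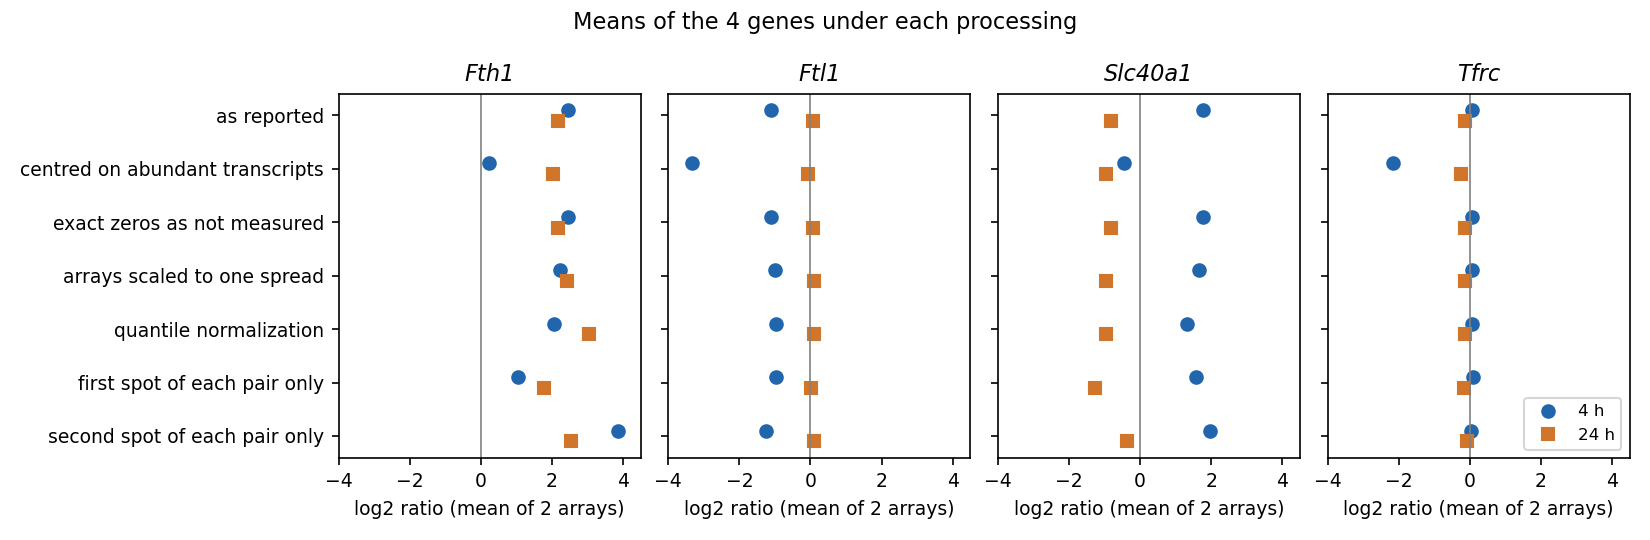
Mean log2 ratio of LPS over control (horizontal axes) of Fth1, Ftl1, Slc40a1 and Tfrc at 4 h (circles) and 24 h (squares) as reported and under 6 other treatments of the values (vertical axis). Centring on abundant transcripts moves the 4 h means of all 4 genes down, to 0.24 for Fth1 and -0.45 for Slc40a1, and the 24 h mean of Fth1 stays between 1.79 and 3.04.

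Of a list of 75 genes of iron handling, 57 were measured, the 4 genes above included. Among the other 53, 4 (7.55%) were higher and 2 (3.77%) lower at 4 h, and 0 were higher and 0 lower at 24 h. These shares are near or below those of all genes given above. The median log2 ratio of the 53 was 0.12 at 4 h and -0.07 at 24 h, beside -0.001 and 0.02 for all genes. At 24 h, Fth1 was the only gene of the 57 past the rule. On the first 24 h array alone 6 of the 57 were higher and 5 lower, and on the reversed one alone 2 and 3. Of all 11138 genes, 502 were higher and 818 lower on the first 24 h array alone, and 771 and 310 on the reversed one. On the first 4 h array alone 12 of the 57 were higher, and on the reversed one 9. Of all genes, 1476 and 1376 were higher on those 4 h arrays. Nothing is read from the single-array counts.

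**Figure D4:**
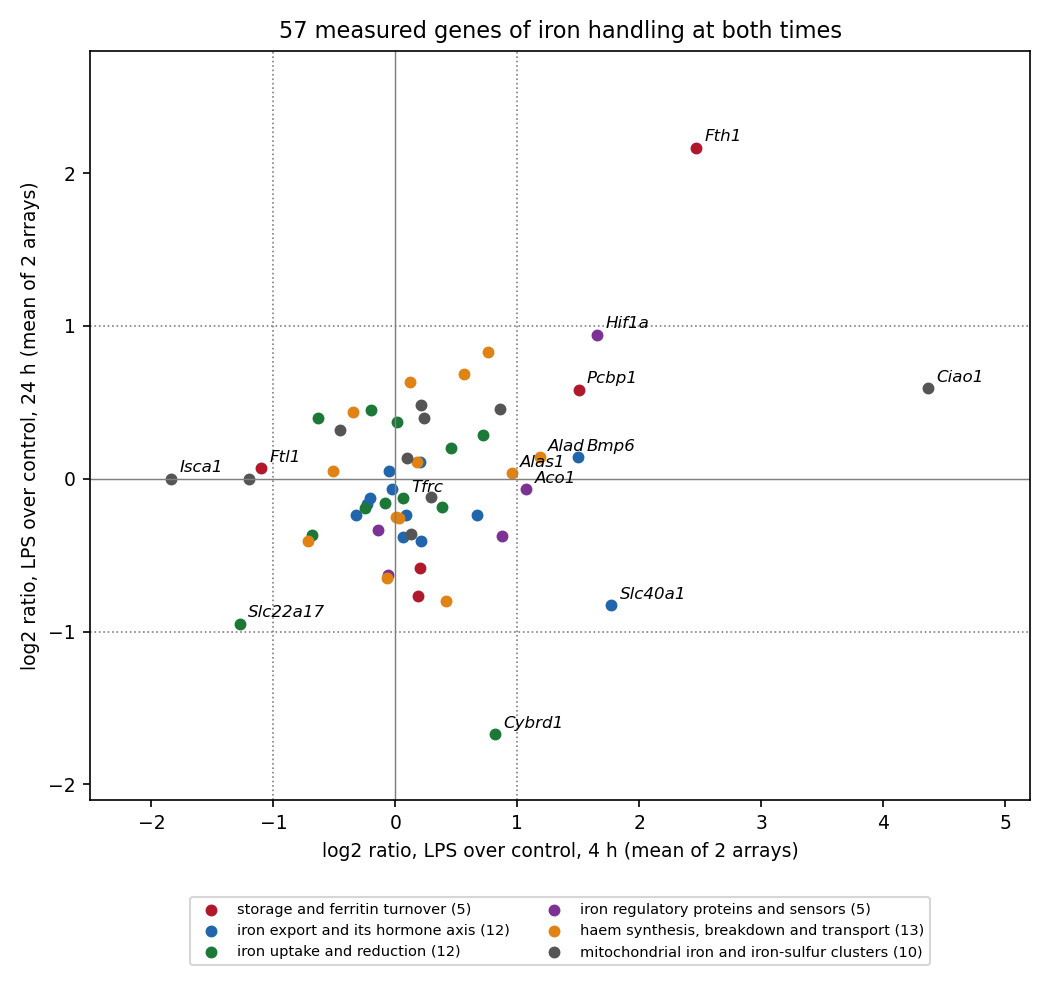
Mean log2 ratio of LPS over control at 4 h (horizontal axis) and 24 h (vertical axis) for 57 genes of iron handling, coloured by role, with dotted lines at 2-fold. Fth1 is alone in the upper right beyond both lines, and Ciao1, at 4.37, is the highest at 4 h.

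In ferritin storage and turnover, Pcbp1, a chaperone that delivers iron to ferritin, was 2.83-fold higher at 4 h, with log2 ratios of 1.96 and 1.05 on the arrays (SD 0.64). It lay at 0.58 ± 0.65 at 24 h. Ncoa4, the receptor that directs ferritin to lysosomes, read 0.20 ± 0.27 and -0.59 ± 1.07 at the 2 times. The mitochondrial ferritin gene Ftmt read 0.18 ± 0.26 and -0.77 ± 1.08, with the first array at 0 each time. Neither met the rule.

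On the side of export and its hormone, Bmp6, the endothelial ligand that drives hepcidin synthesis in the liver, was higher at 4 h. Its arrays read 1.71 and 1.28 (SD 0.30), a mean of 2.82-fold, and its 4 spot readings lay between 1.27 and 1.82. At 24 h it lay at 0.14 ± 0.46, below both 4 h arrays. Bmp6 and Slc40a1 were the 2 of 12 genes of this role past the rule at 4 h, where 8.74% of all genes were higher. Slc40a1 was itself picked on earlier results. Counts within this and the other roles are small, and nothing is read from them. The ferroxidase genes Heph, at -0.33 and -0.24, and Cp, at 0.20 and 0.11, did not meet it at either time. Hamp, the hepcidin gene, read 0.67 ± 0.94 at 4 h, with arrays at 0 and 1.33.

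Among 12 genes of uptake and reduction, Slc22a17, a receptor for lipocalin 2, was the 1 past the rule, lower at 4 h at -1.28 ± 0.49 (SD, 2 arrays). Of all genes, 5.77% were lower at 4 h. At 24 h Slc22a17 read -0.95 ± 0.53, so all 4 arrays were on the control side. The iron transporter Slc11a2 read -0.63 ± 0.12 at 4 h and 0.40 ± 0.21 at 24 h, and Lcn2, the lipocalin that binds bacterial siderophores, 0.01 and 0.37. Cybrd1, a ferric reductase, had the largest mean of the role at 24 h, -1.67 ± 2.37, with both spots of the first array at a ratio of exactly 1.

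Of 5 genes of iron regulation and sensing, Hif1a, a transcription factor that accumulates when oxygen is low, was higher at 4 h at 1.65 ± 0.72 (SD, 2 arrays) and read 0.94 ± 0.57 at 24 h. Aco1, which encodes iron regulatory protein 1, read 0.34 and 1.81 on the 4 h arrays and did not meet the rule. Nfe2l2, the activator of antioxidant genes, read 0.90 and 0.85 at 4 h and -0.58 and -0.17 at 24 h.

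None of 13 genes of haem synthesis, breakdown and transport met the rule at either time. Alad and Alas1, early enzymes of haem synthesis, had the largest means of the role, 1.19 ± 1.02 and 0.95 ± 0.43 (SD, 2 arrays) at 4 h. Hmox1, the inducible haem oxygenase that releases iron from haem, read 0.43 and 0.68 at 4 h, then 1.06 and 0.32 at 24 h, above 0 on all 4 arrays. Of 10 genes of mitochondrial iron and iron-sulfur clusters, Ciao1, of the cytosolic cluster assembly machinery, was higher at 4 h at 4.37 ± 1.74, and Isca1, a mitochondrial assembly factor, lower at -1.84 ± 0.62. The spots of Isca1 read -0.03 and -2.78 on the first 4 h array and -1.18 and -3.37 on the reversed one, so its call rests on the second spot. All spots of Isca1 and Slc25a37 had a ratio of exactly 1 at 24 h. Measured against abundant transcripts, 1 gene of the whole list, Ciao1, was higher and 48 were lower at 4 h. Of all genes, 0.655% were higher and 85.5% lower on that scale, so the list moved with the whole array. Pcbp1, Bmp6 and Hif1a turned in sign, at -0.72, -0.73 and -0.57. Other genes with means above 0 turned too, among them Aco1 (-1.15), Nfe2l2 (-1.35), Alad (-1.04), Alas1 (-1.27) and Hmox1 (-1.66).

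By Euclidean distance over the 4 arrays, the genes with the pattern most like that of Fth1 were Irgm2 (distance 1.07), an immunity-related GTPase, Casp4 (1.43), an inflammatory caspase, and Il33 (1.45), an alarm cytokine. Irgm2 had means of 2.47 at 4 h and 1.94 at 24 h, beside 2.46 and 2.17 for Fth1. On the first 4 h array the Fth1 value used, 2.36, averages spots at -0.70 and 5.43. The neighbours of Fth1 thus rest in part on a value that neither spot showed. The nearest to Ftl1 were Ctsc, a lysosomal protease (0.23), Rad1 (0.23) and Pex14 (0.25), and to Slc40a1 Tceanc2 (0.65), Cers5 (0.68) and Dpm3 (0.69). Tfrc had the closest neighbours, Elac1 (0.08), Ywhag (0.13) and Nmt1 (0.14). Genes near 0 on every array have many neighbours, and with 4 arrays the likeness is a description.

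Cell type markers were read in the same way. Of all genes, 8.74% were higher and 5.77% lower at 4 h, and 1.68% and 0.799% at 24 h. Ratios give no level, so the endothelial identity of the cells could not be checked on these arrays. Of 9 endothelial markers 0 were higher and 1 lower at 4 h, with a median of -0.01. The lower gene was Cdh5, VE-cadherin, at -3.47 ± 2.12 (SD, 2 arrays). Of 4 red cell precursor markers measured, 1, the globin gene Hba-a1, was higher at 4 h, at 1.16, and 0 met the rule at 24 h. Of 6 mural and fibroblast markers, 4 were higher at 4 h and 1 at 24 h, with medians of 1.34 and 0.18. Their largest 4 h mean, 1.92, was below the 4 h median of the abundant transcripts, 2.04, taken over gene means. At 24 h their largest mean, 1.14, was above the abundant median taken in the same way, 0.11. Of 7 macrophage and leukocyte markers 0 met the rule at either time, with medians of -0.18 and -0.15. The part of these in the iron gene values was not tested. Fewer cells and less RNA per cell cannot be told apart.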

How the data were processed

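The members and all gene lists were chosen with earlier results of these data known. The authors deposited log2 ratios of the 2 dyes for 32448 spots per array; the log base was settled from the values, since raising 2 to the absolute value gives multiples of 0.01 (tolerance 2 hundredths of a step) on 99.96% of spots or more. Per the labels, RNA was amplified and hybridised to Operon long-oligonucleotide arrays; scanner, background correction and normalization: not given in the sources used here. The platform annotation gives 1 gene symbol for 24344 spots, several for 98 and none for 8006. Arrays were centred on their median, reversed arrays turned in sign, and spots of a gene averaged (Python 3.11.15, pandas 2.3.3). Without replicate RNA no test was run. The calling rule was tried on simulated data only. Those data were set with less spread than these arrays, whose SD over spots was 0.98 to 1.44, so they give no error rate here. The named genes are the 4 members, list genes past the rule, the 2 largest of each role and the 3 nearest genes of each member; other names, such as Hmox1, Nfe2l2, Slc11a2, Ncoa4 and Hamp, were chosen after their values were seen. The number of arrays limits the precision.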

Additional observations from a re-analysis of the deposited data

Results flagged for a closer look

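Slc40a1 had log2 ratios above 0 on both 4 h arrays and below 0 on both 24 h arrays, so that its ratio moved in opposite directions at the 2 times. The 24 h mean minus the 4 h mean was -2.60. This difference was not tested. Centred on abundant transcripts the difference was -0.51, with all 4 arrays below 0.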

How the results depend on the processing

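Centring on abundant transcripts, added after seeing the data, moved the 4 h means to 0.24 for Fth1, -0.45 for Slc40a1, which turned in sign, -3.32 for Ftl1 and -2.16 for Tfrc, and the 24 h mean of Tfrc to -0.26. The iron list then had 1 gene higher and 48 lower at 4 h and 1 lower at 24 h, and all genes 73 higher and 9527 lower at 4 h and 123 and 158 at 24 h. Scaling to one spread gave Fth1 2.23 at 4 h, with 2 list genes higher and 1 lower at 24 h and 144 of all genes lower. Quantile normalization gave Fth1 2.06 at 4 h and 3.04 at 24 h, with 3 list genes higher and 1 lower at 24 h and 411 and 148 of all genes. By the first spot alone, also added later, Fth1 lay at 1.06 at 4 h, with 1 list gene lower at each time, and by the second at 3.86, with 3 higher at 24 h. Leaving out 1 array gave 9 to 12 list genes higher at 4 h (most without the reversed array), and 2 to 6 higher and 3 to 5 lower at 24 h (most without the reversed array); for all genes it gave 1376 to 1476 higher and 996 to 1007 lower at 4 h and 502 to 771 and 310 to 818 at 24 h. With no demand on each array 1 list gene was lower at 24 h, and 388 and 280 of all genes were higher and lower. A 3-fold mean left 1 list gene lower at 4 h, with 569 and 306 of all genes at 4 h and 73 and 15 at 24 h, and a 1.5-fold mean gave 346 and 183 at 24 h. Causes were not tested beyond what each setting does by construction. In all, 105 of the 132 alternatives for the 4 genes and the list stayed within the spread between arrays or within 1.5 times the count. Among them was every value as deposited, with exact zeros left out and by the median over spots. For the 4 genes these could not move. The deposited medians were already 0, none of their spots had a ratio of exactly 1, and the mean of 2 spots is their median. With 2 arrays, the mean of a gene without 1 of them always stays within the SD. The count is therefore no measure of stability. Each of the 4 genes has 1 oligonucleotide, so none could be set against another, and centring on an earlier list of abundant transcripts was not run. The table used holds no intensities, so signal over background limits these values to an unknown degree.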
